A study of Mus musculus with 6 samples.

Results

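Foxo1 and Foxo3, which encode forkhead transcription factors held back by insulin and growth-factor signalling, were examined in mouse leukaemia cells together with 8 genes known as FOXO targets in nutrient and growth-factor responses: Insr, Irs2, Pik3ip1, Trib2, Sesn3, Ccng2, Txnip and Cited2. The genes were taken by symbol from the array's annotation, and each was represented by its brightest single-gene probe. All 10 were measured, out of 19938 genes tested. RNA came from pre-B cells of the FvB/N strain transformed with BCR-ABL1, the fusion kinase of Philadelphia chromosome-positive leukaemia. The cells of both groups were homozygous for floxed Spry1 and Spry2, were resistant to puromycin, and had been exposed to 0.5 µM 4-hydroxytamoxifen for 2 days. The control group (3 arrays) was transduced with PMIP-ERT2 and the other group (3 arrays) with PMIP-CRE-ERT2, which adds the tamoxifen-inducible recombinase that deletes floxed alleles. Cells with the recombinase but unfloxed genes were not analysed here, so loss of the Sprouty genes and activity of the recombinase cannot be told apart. Whether replicate arrays stem from separate cultures is not stated in the labels. The p-values then measure only the spread among these samples, and that spread may be technical.

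FOXO proteins enter the nucleus and activate transcription when PI3K and AKT activity is low, as in starved or growth-factor-deprived cells. AKT phosphorylates them when insulin or growth-factor receptors are engaged, and the phosphorylated proteins are kept in the cytoplasm. Many of their target genes feed back on the same pathway: some restore the insulin receptor and its adaptor, others restrain PI3K, mTORC1, glucose uptake or the cell cycle. In B cell precursors FOXO1 is also required for expression of the recombinase genes that assemble antigen receptors. Messenger RNA levels do not report the phosphorylation or location of the proteins.

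The targeted genes were lower in the Cre-ERT2 arrays, Spry2 at 47.8% and Spry1 at 55.7% of the control signal (limma adjusted p = 0.00162 and 0.00462). The exons under their probes were not analysed here, so these percentages do not measure how much of either gene was deleted. Of all genes tested, 382 passed an adjusted p of 0.05, which is 1.92%, with 0.797% higher and 1.12% lower in Cre-ERT2 cells. Genes higher in Cre-ERT2 cells were 41.6% of the calls, and 31.2% or 52.5% under other scalings. Values are log2 expression, and any pair of arrays correlated at 0.992 to 0.997 over the probes. The pre-B label was borne out by the B lineage markers, all 11 of which lay above the lower quartile of signal in every array, with array means from 12.05 to 12.17. Mast cell markers had means over 19 genes of 7.04 to 7.42 in control arrays, below the medians of those arrays (7.73 to 7.81), and of 7.51 to 8.32 with Cre-ERT2. Their difference was 0.67 (exact two-sided permutation p = 0.1, the smallest that 3 against 3 allow). Of these markers 16 had positive differences, 3 rose past the threshold (Mcpt2, Tpsab1 and Tpsb2), and 14 lay above the lower quartile in every array. All 7 measured erythroid and stromal markers also lay above it in every array, with array means of 8.01 to 8.07. Such a count alone therefore does not show that a cell type was present. Other myeloid markers had 0 of 12 called and array means of 7.04 to 7.20. Their differences were positive for 7 and negative for 5, with a median of 0.01. The groups did not overlap for 2 of the 12 (16.7%, beside 24.8% of all genes), Lyz2 and Itgam. Lyz2 read 8.56, 8.91 and 8.42 in the controls and 9.05, 10.12 and 9.90 in the Cre-ERT2 arrays (log2 difference 1.07, limma adjusted p = 0.0651). Itgam had a log2 difference of 0.21 (limma adjusted p = 0.150). Of 8 T and NK cell markers 1, Klrb1c, fell, at 5.28 to 5.71, below the lower quartile of each array. In bulk RNA, fewer cells of a type and less RNA per cell cannot be told apart.

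Among the 10 genes, Trib2 and Ccng2 fell in Cre-ERT2 cells and none rose, against 1.92% of all genes called in either direction and 1.12% called lower. The median log2 difference of the 10 was 0.01, beside -0.03 over all genes. Positive differences were found for 5 of them, beside 36.9% of all genes. After a repeated quantile normalization the count became 7, beside 41.2% of all genes, as Insr and Cited2 turned positive (0.026 and 0.036). The groups did not overlap for 4 of the 10 genes (Foxo3, Trib2, Ccng2 and Txnip), compared with 24.8% of all genes.

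**Figure D1:**
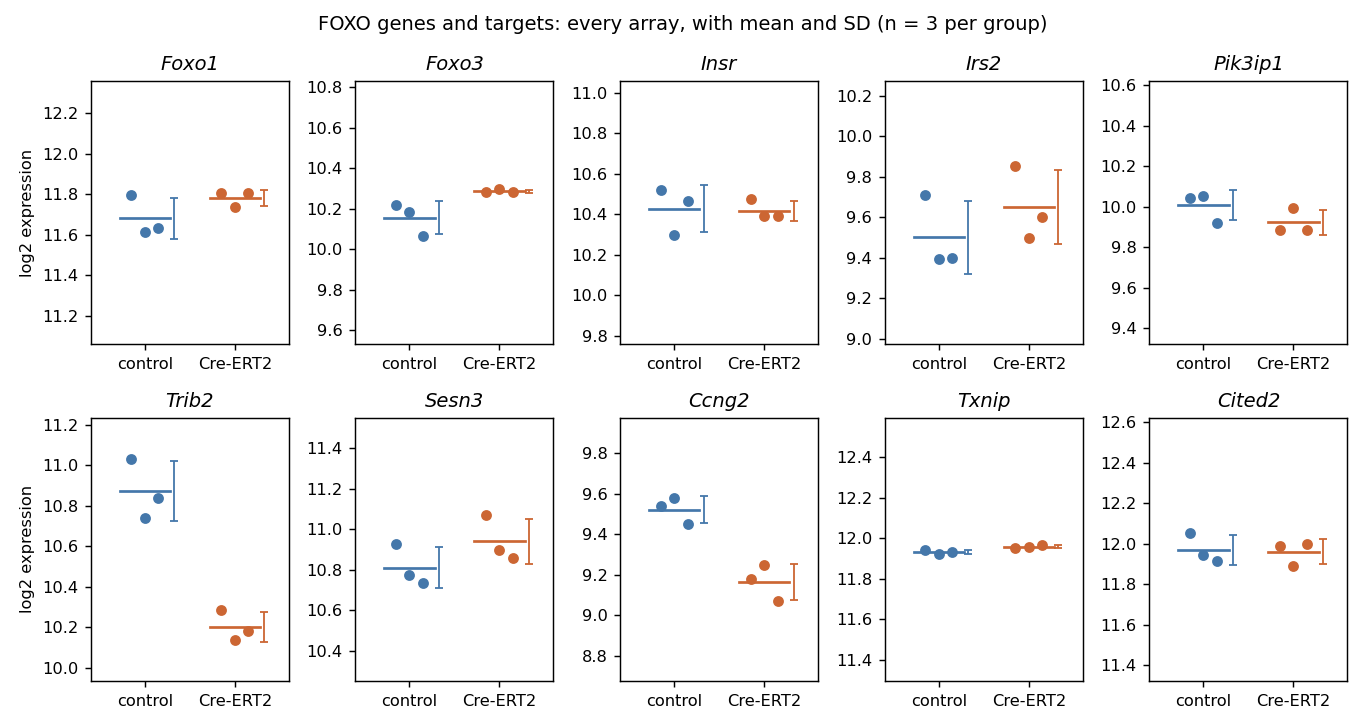
Log2 expression of the 10 genes in each array (points, in the order of replicates 1 to 3), with the group mean (bar) and the SD (whisker, n = 3) for control and Cre-ERT2 arrays. All panels span the same log2 range, so the gap between groups is widest for Trib2 (0.46 between the nearest arrays) and next for Ccng2 (0.20).

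The transcription factor genes themselves did not pass the threshold. Foxo1 read 11.80, 11.61 and 11.64 in the control arrays 1, 2 and 3, and 11.81, 11.74 and 11.81 in the Cre-ERT2 arrays 1, 2 and 3. The groups overlapped, because control 1 lay above Cre-ERT2 2. The difference was 0.10 (95% interval -0.04 to 0.25, limma adjusted p = 0.455), an interval that corresponds to folds of 0.971 to 1.19.

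Foxo3, whose product shares most targets with FOXO1, read 10.22, 10.18 and 10.07 in the control arrays and 10.28, 10.30 and 10.28 in the Cre-ERT2 arrays. Here every Cre-ERT2 array lay above every control array, by at least 0.06. The mean went from 10.16 ± 0.08 to 10.29 ± 0.01 (SD, n = 3 each; limma difference 0.13, adjusted p = 0.273), a 1.10-fold difference that did not pass over all genes. Of the remaining FOXO genes, Foxo4 differed by 0.11 ± 0.08 and Foxo6 by 0.09 ± 0.08 (SE; limma adjusted p = 0.540 and 0.594). All 4 FOXO genes thus had small positive differences, under both alternative scalings too, and 0 of the 4 passed. When the mast cell marker mean of each array was added to the model (the mast cell marker covariate), Foxo1 differed by -0.0032 and Foxo3 by 0.12. Every Cre-ERT2 array had a higher marker mean (7.51 to 8.32) than every control array (7.04 to 7.42). A fit with this covariate therefore cannot fully separate the markers from the group, here or for the genes below.

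Trib2 encodes a pseudokinase that binds AKT and the ubiquitin ligase COP1. It read 11.03, 10.74 and 10.84 in the control arrays and 10.28, 10.14 and 10.18 in the Cre-ERT2 arrays, and the nearest arrays of the groups were 0.46 apart. The mean fell from 10.87 ± 0.15 to 10.20 ± 0.07 (SD, n = 3 each). Trib2 thereby kept 62.8% of the control signal (95% interval 55.3% to 71.4%; log2 difference -0.67 ± 0.08 SE, limma adjusted p = 0.00785). By size it was the fall ranked 16 among the 223 genes called lower. The fall was also present with the mast cell marker covariate (-0.87, adjusted p = 0.0131). Leaving out Cre-ERT2 3 gave -0.66 with an adjusted p of 0.0543, which missed the threshold, and the call held when any of the other 5 arrays was left out.

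Ccng2 encodes cyclin G2, an atypical cyclin that is raised when cells leave the cycle and that is a standard readout of FOXO activity. Its values were 9.54, 9.58 and 9.45 in the control arrays and 9.18, 9.25 and 9.07 in the Cre-ERT2 arrays. The groups were separated by 0.20, and within each group the arrays differed by less than that. Expression fell from 9.52 ± 0.07 to 9.17 ± 0.09 (SD, n = 3 each), to 78.1% of the control signal (95% interval 70.6% to 86.5%; log2 difference -0.36 ± 0.06 SE, limma adjusted p = 0.0374). The size of this fall stayed between -0.31 and -0.41 under 14 alternatives. Its call was lost when any of the 6 arrays was left out (adjusted p from 0.0510 to 0.177). It was also lost with the mast cell marker covariate, where the SE was wider (-0.31 ± 0.11 SE, limma adjusted p = 0.344).

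**Figure D2:**
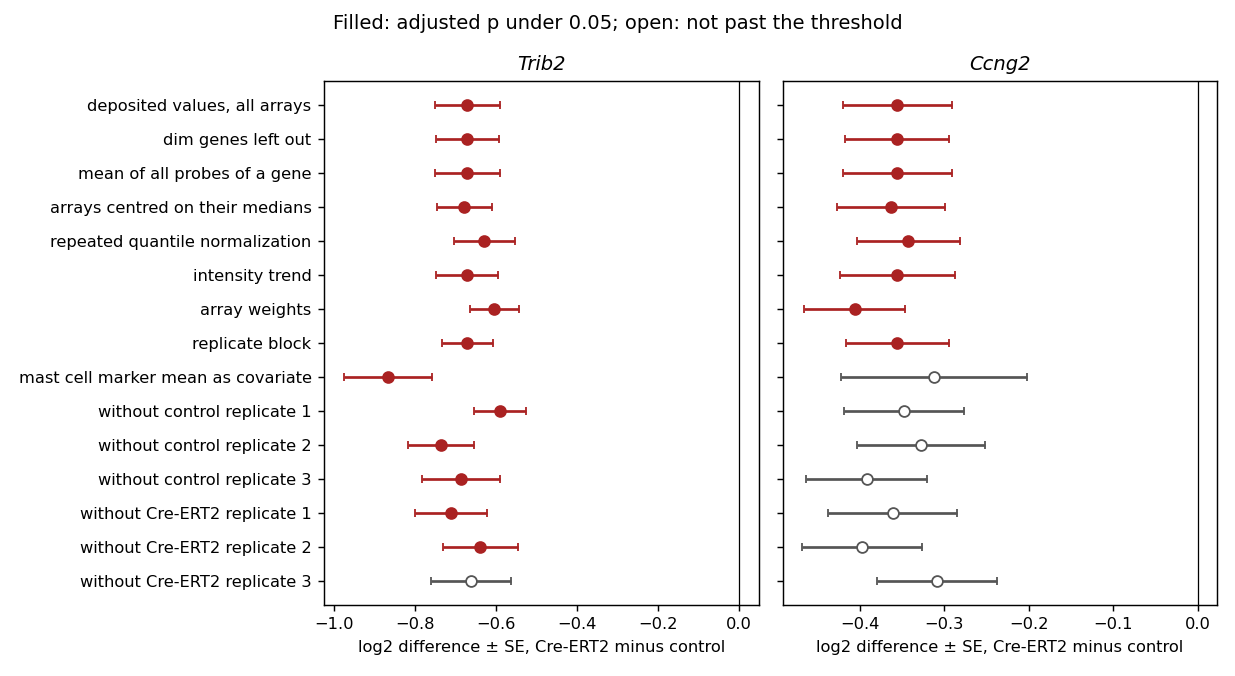
Log2 difference with its SE for Trib2 (left) and Ccng2 (right) under the deposited values with all arrays and under 14 alternatives, with filled points where the adjusted p was under 0.05. Trib2 stayed between -0.59 and -0.87 and passed under 13 of the alternatives, Ccng2 passed under 7. The horizontal ranges of the panels differ.

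The insulin receptor gene was measured by a pair of probes, and the difference between the probes was not tested. The brighter Insr probe read 10.52, 10.30 and 10.47 in the control arrays and 10.48, 10.39 and 10.39 in the Cre-ERT2 arrays, a difference of -0.01 (95% interval -0.17 to 0.15, limma adjusted p = 0.961). The dimmer probe read 9.65, 9.42 and 9.49 against 9.88, 9.72 and 9.73, with every Cre-ERT2 array above every control array. Its difference was 0.26 (95% interval 0.08 to 0.43), and it did not pass when adjusted over all 21789 single-gene probes (limma adjusted p = 0.114). The exons under these probes were not analysed here.

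Irs2, the adaptor through which the insulin and IGF receptors reach PI3K, varied more within the groups than between them. It read 9.71, 9.39 and 9.40 in the control arrays and 9.85, 9.49 and 9.60 in the Cre-ERT2 arrays, and array 1 was the highest of its group in both. The difference of 0.15 (95% interval -0.10 to 0.40, limma adjusted p = 0.543) did not pass. With the replicate number as a block its SE was 0.062, beside 0.111 without, and it did not pass either (limma adjusted p = 0.242). Irs2 had the widest interval of the 10 genes. Within each group its arrays stood in the same order as the mast cell marker means, which were 7.42, 7.04 and 7.19 in the control and 8.32, 7.51 and 7.84 in the Cre-ERT2 arrays. Control 2 and control 3 were nearly equal in Irs2, however. With the marker means as a covariate the Irs2 difference was -0.21 (adjusted p = 0.537).

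Pik3ip1, a membrane protein that inhibits the catalytic subunit of PI3K, read 10.05, 10.06 and 9.92 in the control arrays and 9.89, 9.99 and 9.89 in the Cre-ERT2 arrays. The groups overlapped, and the difference was -0.08 (95% interval -0.22 to 0.05, limma adjusted p = 0.527). Sesn3, a sestrin that restrains mTORC1, read 10.93, 10.77 and 10.73 against 11.07, 10.90 and 10.86. Its difference was 0.13 (95% interval -0.04 to 0.30, limma adjusted p = 0.425), with control 1 above both lower Cre-ERT2 arrays. Like Irs2 it changed sign with the mast cell marker covariate (-0.05, adjusted p = 0.906).

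Txnip, the arrestin-fold protein that binds thioredoxin and limits glucose uptake, hardly varied across the series. Its values were 11.94, 11.92 and 11.93 in the control arrays and 11.95, 11.96 and 11.97 in the Cre-ERT2 arrays. The groups did not overlap, yet they were 0.01 apart, and the difference was 0.03 (95% interval -0.08 to 0.14, limma adjusted p = 0.828). Expressed as a fold, the interval ran from 0.944 to 1.10.

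Cited2, a transcriptional coregulator that competes for binding to CBP and p300, read 12.06, 11.94 and 11.91 in the control arrays and 11.99, 11.89 and 12.00 in the Cre-ERT2 arrays. The groups overlapped and the difference was -0.01 (95% interval -0.15 to 0.13, limma adjusted p = 0.955). For these 6 targets (with the brighter Insr probe) the intervals reached no further than a 1.32-fold rise or a fall to 85.6% of control, both short of the fall of Trib2. For 8 of the 10 genes control 1 was the highest control array, as it was for 66.6% of all genes. It also had the highest median signal (7.81, compared with 7.73 to 7.77 in the other arrays).

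**Figure D3:**
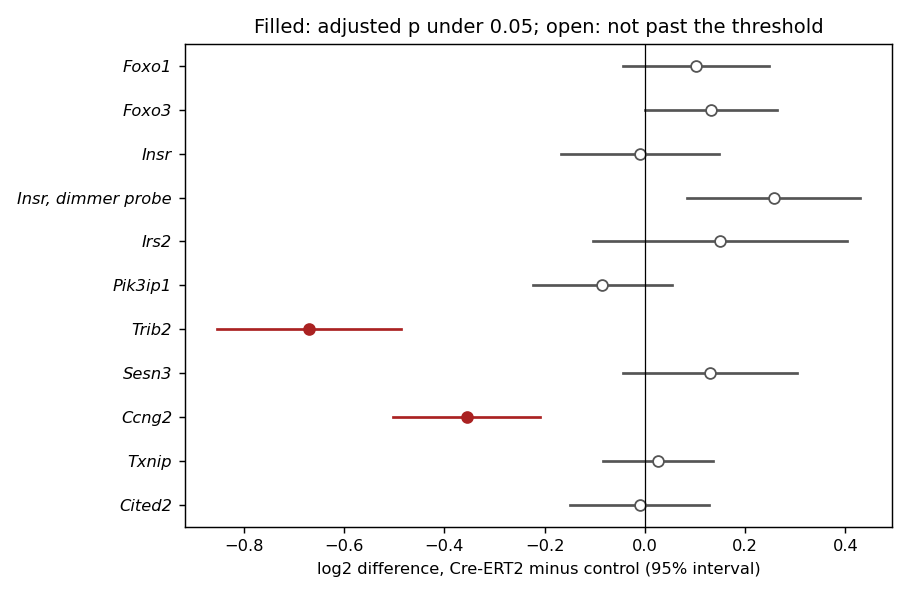
Log2 difference (Cre-ERT2 minus control) with its 95% interval for the 10 genes and for the dimmer Insr probe, filled where the adjusted p was under 0.05. The intervals of Trib2 (-0.85 to -0.49) and Ccng2 (-0.50 to -0.21) lay wholly below 0. Those of Foxo3 (0.0008 to 0.26) and the dimmer Insr probe (0.08 to 0.43) lay above 0 without passing the adjustment.

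To show what the genes that fell and those that did not carry in front of their start sites, reference promoter sequence (RefSeq, GRCm38.p6, the C57BL/6J strain) was searched in the 250 bases before the start, on both strands. Entries were matched for 9 of the 10 genes. The letters searched were GTAAACA, the core of the FOXO binding element, CAAAACA, the core of the insulin-responsive sequence, and CACGAG repeated after a gap of 5 bases, the paired boxes of the carbohydrate response element through which glucose acts on Txnip. These do not overlap each other in the windows printed. GTAAACA was found in 3.17% of 32851 promoter windows, CAAAACA in 5.56%, and the paired boxes in 1 window, that of Txnip. Those boxes are the known element of Txnip, so their match there was set in advance. Matches lay in 3 of the 9 windows, those of Ccng2, Irs2 and Txnip, and 6 windows held none. Ccng2, which fell, holds CAAAACA from 16 to 10 bases before its start (chr5:93267323-93267572, plus strand), and Irs2, which did not pass, holds it on the opposite strand from 37 to 31 bases before (chr8:11008930-11009179, minus strand). Txnip, with the narrowest interval, holds GTAAACA from 121 to 115 bases and the paired boxes from 85 to 69 bases before its start (chr3:96557707-96557956, plus strand). Trib2 is shown for the 73 bases of its window that precede the annotated gene (chr12:15816963-15817035, minus strand). Each is printed along the strand of its gene, with the matches in capitals.

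Ccng2: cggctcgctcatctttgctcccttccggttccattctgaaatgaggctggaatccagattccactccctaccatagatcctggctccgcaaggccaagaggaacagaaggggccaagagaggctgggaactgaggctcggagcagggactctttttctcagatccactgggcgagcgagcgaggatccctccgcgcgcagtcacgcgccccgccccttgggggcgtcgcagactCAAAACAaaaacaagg

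Trib2: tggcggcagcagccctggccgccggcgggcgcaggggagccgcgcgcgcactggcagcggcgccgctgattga

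Irs2: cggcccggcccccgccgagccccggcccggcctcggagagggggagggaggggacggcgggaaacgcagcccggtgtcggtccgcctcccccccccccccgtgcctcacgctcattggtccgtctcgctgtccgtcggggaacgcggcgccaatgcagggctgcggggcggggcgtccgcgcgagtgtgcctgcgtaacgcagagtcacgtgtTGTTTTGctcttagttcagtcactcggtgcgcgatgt

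Txnip: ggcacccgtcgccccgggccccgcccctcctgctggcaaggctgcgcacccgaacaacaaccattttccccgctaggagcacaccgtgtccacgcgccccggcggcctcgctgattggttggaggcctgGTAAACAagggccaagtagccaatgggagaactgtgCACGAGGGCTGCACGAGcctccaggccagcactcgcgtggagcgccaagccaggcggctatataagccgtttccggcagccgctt

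A match is a description of the reference letters, and binding was not measured here. Matched letters stand before a gene that fell (Ccng2), a gene that varied within its groups (Irs2) and a gene whose groups differed by 0.03 (Txnip), and the windows of Foxo1, Foxo3, Pik3ip1, Trib2, Sesn3 and Cited2 held none of them. Most of the searched window lay within the annotated gene for Trib2 (all but 73 of 250 bases) and for Pik3ip1. For both, the absence of a match says little about the sequence before the gene.

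Other known FOXO targets were read from a wider list of 37 genes, of which 35 were measured. Among these 1 rose and 1 fell, beside 0.797% and 1.12% of all genes, and the list median was -0.03, equal to that of all genes. Rag2, which encodes a subunit of the antigen receptor recombinase, read 9.18, 9.10 and 9.08 in the control arrays and 8.42, 8.47 and 8.40 in the Cre-ERT2 arrays. It fell by 0.68 on the log2 scale (SE 0.05, limma adjusted p = 0.00162) and passed under all 14 alternatives. Gabarapl1, an autophagy gene of the ATG8 family, read 11.65, 11.58 and 11.58 against 11.82, 11.90 and 11.94. It rose by 0.28 (SE 0.06, limma adjusted p = 0.0484), a call lost without any of the 6 arrays (adjusted p from 0.0569 to 0.211) and with the mast cell marker covariate (0.32, adjusted p = 0.265). Ccnd2, a cyclin gene that FOXO proteins repress, differed by 0.25 (limma adjusted p = 0.0613) and the oxygen-sensing hydroxylase gene Egln1 by -0.23 (limma adjusted p = 0.0703). Rag1 differed by -0.31 (limma adjusted p = 0.138). Over the 43 FOXO targets measured in both lists, 3 fell (Trib2, Ccng2 and Rag2) and 1 rose, beside 1.12% and 0.797% of all genes. Ddit4, a FOXO target read below with the mTORC1 genes, is outside this count and also rose (0.39, limma adjusted p = 0.0157).

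Genes that act on FOXO proteins, and the PI3K-AKT pathway above them, contained no gene past the threshold in the fit reported here. Of 20 measured regulators of FOXO protein, 15 had negative differences and the median was -0.08, with 0 called and 11 at an unadjusted limma p under 0.05. Over all genes, 1.92% were called, 36.9% had positive differences and 18.1% had an unadjusted p under 0.05. The acetyltransferase gene Ep300 read 11.24, 11.03 and 11.11 against 11.45, 11.36 and 11.42, a difference of 0.28 (limma adjusted p = 0.0651) with no overlap. It passed the threshold under 7 of 14 alternative settings, the omission of control 1 among them. With an intensity trend 6 of the 20 regulators passed, as did 1187 of all 19938 genes. Ywhah, an adaptor of the family that retains phosphorylated FOXO in the cytoplasm, differed by -0.20 (limma adjusted p = 0.102). Of 26 measured PI3K-AKT genes, 15 had positive differences, 0 were called and 3 had an unadjusted p under 0.05. The lowest p-values were those of Inpp4b, a phosphatase of PI3K lipid products (0.40, limma adjusted p = 0.0751; 0.10 with the mast cell marker covariate), and Pik3cd, a catalytic subunit of leukocytes (0.27, limma adjusted p = 0.0753). Pik3cd passed under 6 of the 14 settings, the omission of control 1 among them, and Inpp4b under 5. The sign counts of both lists depended on scaling. After a repeated quantile normalization 21 of the 26 PI3K-AKT genes and 8 of the 20 regulators were positive, beside 41.2% of all genes.

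**Figure D4:**
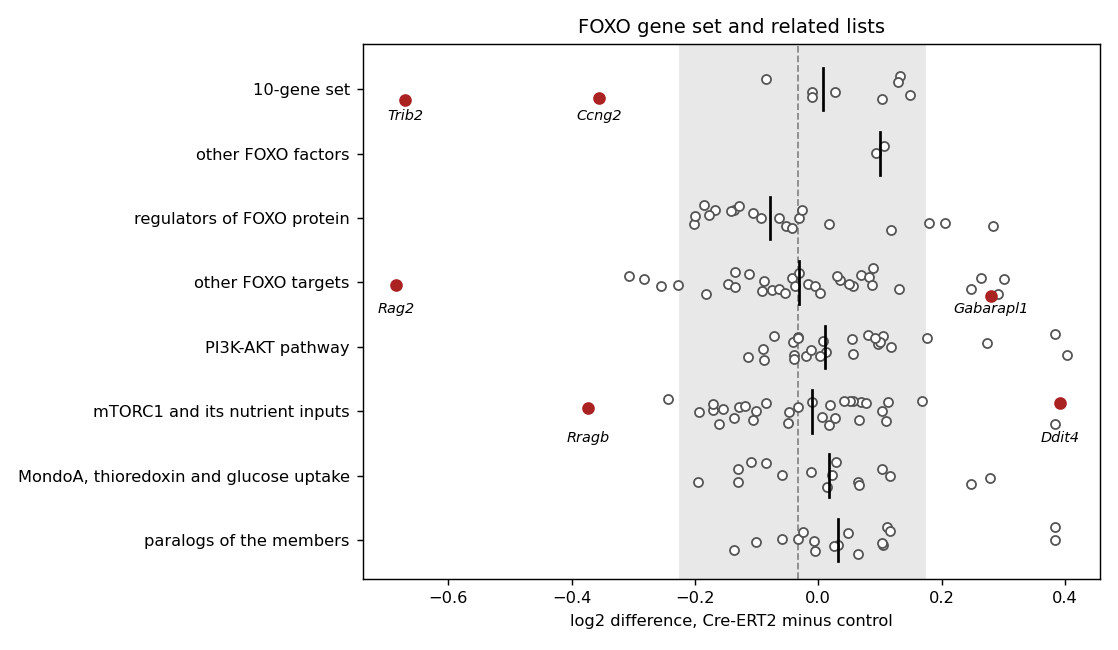
Log2 difference (Cre-ERT2 minus control) of each measured gene in the 10-gene set and in 7 related lists, red where the adjusted p was under 0.05, with the list median as a black bar (a gene of 2 lists is drawn in each). The grey band holds the middle of all 19938 genes (percentiles 5 to 95, -0.22 to 0.17) and the dashed line is their median (-0.03); all 6 red points lie outside the band, with Trib2, Ccng2, Rag2 and Rragb on the left.

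The nutrient inputs of mTORC1 held a gene called in each direction. Of 33 measured genes, 16 had positive differences, the median was -0.01, 1 rose and 1 fell, where of all genes 36.9% had positive differences, 0.797% rose and 1.12% fell. Ddit4, a stress-induced inhibitor of mTORC1 that is also a FOXO target, read 10.64, 10.55 and 10.53 in the control arrays and 10.98, 10.94 and 10.96 in the Cre-ERT2 arrays. It rose by 0.39 (SE 0.05, limma adjusted p = 0.0157). Rragb, a Rag GTPase that brings mTORC1 to the lysosome when amino acids are present, read 9.85, 9.90 and 9.83 against 9.41, 9.57 and 9.49. It fell by 0.37 (SE 0.06, limma adjusted p = 0.0250). Both calls were lost without control 2, control 3, Cre-ERT2 1 or Cre-ERT2 3 (adjusted p up to 0.103 for Ddit4 and 0.142 for Rragb) and with the mast cell marker covariate (0.33, adjusted p = 0.212, and -0.25, adjusted p = 0.345). Mios, a subunit of the complex that relays amino acid supply to the Rag GTPases, differed by -0.24 (limma adjusted p = 0.0643).

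Around Txnip, 0 of 16 measured genes of the MondoA factors, thioredoxin system and glucose uptake were called, beside 1.92% of all genes. Of the 16, 5 had an unadjusted limma p under 0.05, beside 18.1% of all genes, and the list median was 0.02. Mlxip, which encodes MondoA, the glucose-sensing factor that drives Txnip, differed by 0.28 (limma adjusted p = 0.102), and the thioredoxin reductase gene Txnrd1 by 0.25 (limma adjusted p = 0.151; 0.01 with the mast cell marker covariate).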

How the data were processed

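Biotin-labelled total RNA was run on 6 Affymetrix arrays, per the labels. The deposited table holds log2 values for 35556 probes, between 2.47 and 14.81. The submitters' processing notes name RMA and Partek 6.5. Further steps and the build are not stated in the sources used. Precision is limited by the number of arrays.

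Probes were named through the platform annotation: 21789 name 1 gene, 1621 several and 12146 none here. Of the 999 genes with several probes, the brightest was kept. The groups were compared by lmFit and eBayes (limma 3.58.1, R 4.3.3). P-values were adjusted over all genes by Benjamini-Hochberg, and 0.05 was the threshold. The procedure was tested on simulated data. The genes, lists and tests were chosen with earlier results of these data known. Named from each list were the genes past the threshold and the 2 next lowest p-values. Rag1, Sesn1 and single marker genes were named after their values were seen. List genes without a single-gene probe were not analysed here. Replicate numbers were not taken as pairs. Alternatives changed the filter, probes, scaling, variance model, weights, covariate, block and arrays.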

Additional observations from a re-analysis of the deposited data

How the results depend on the processing

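The count of 382 called genes moved with most settings: 1155 with dim genes (below the 40th percentile) left out, 1006 with arrays centred on their medians, 703 after a repeated quantile normalization, 1187 with an intensity trend, 1845 with array weights, 581 with the replicate block, 109 with the mast cell marker covariate, and 49 to 251 without 1 array. Higher genes were 41.6% of the calls as deposited, 31.2% after centring and 52.5% after quantile normalization. The 2 calls among the 10 genes were Trib2 and Ccng2 under each of the settings except the covariate (1, Trib2) and the omission of arrays (0 to 1; 0 without Cre-ERT2 3). Whether arrays of equal replicate number share more than the number is not stated in the labels. Their deviations from the group means correlated at 0.27, 0.34 and 0.03, and 4 of 6 arrays correlated best with their own number. The replicate block (581 genes called) changed neither call, ended that of Gabarapl1 (adjusted p = 0.0589) and took Ep300 and Inpp4b past the threshold (adjusted p = 0.0482 and 0.0109). Some differences reversed. With the mast cell marker covariate these were Foxo1 (-0.0032), Irs2 (-0.21) and Sesn3 (-0.051). Insr turned positive with the mean of its probes (0.12), quantile normalization (0.026), array weights (0.045), and without control 1 (0.036), control 3 (0.0098), Cre-ERT2 2 (0.0037) or Cre-ERT2 3 (0.0043), within -0.076 to 0.036 over the single omissions. Cited2 did so with quantile normalization (0.036), array weights (0.025), and without control 1 (0.032) or Cre-ERT2 2 (0.025), within -0.039 to 0.032. The cause was not tested. The mast cell marker difference kept its direction, from 0.46 to 0.86 without 1 array. With 3 arrays a group and a median SE of 0.066, small differences were not resolved. Differences well above that SE could also miss the threshold, as for Inpp4b (0.40, limma adjusted p = 0.0751) and Sesn2 (0.38, limma adjusted p = 0.0841).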

Other observations

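The closest relatives of the 10 genes were read from a list of 17 paralogs, of which 0 were called (1 at an unadjusted limma p under 0.05) and 10 had positive differences. Of all genes, 1.92% were called, 18.1% had an unadjusted p under 0.05 and 36.9% had positive differences. The other sestrin genes, which like Sesn3 restrain mTORC1, lay on both sides of 0. Sesn2 read 8.63, 8.50 and 8.27 in the control and 8.71, 8.95 and 8.89 in the Cre-ERT2 arrays, a difference of 0.38 (limma adjusted p = 0.0841) with no overlap. Sesn1 read 11.87, 11.85 and 11.85 against 11.58, 11.80 and 11.78, a difference of -0.14 (limma adjusted p = 0.331) that also showed no overlap. Relatives of Trib2 and Ccng2 did not pass: Trib1 differed by 0.03, Trib3 by 0.11 and Ccng1 by -0.01. Sesn1 and the relatives of Trib2, Ccng2 and Txnip named here were chosen after their values were seen. Arrdc4, an arrestin-fold relative of Txnip, differed by -0.06 at values of 6.40 to 6.48, close to the lower quartile of the arrays (6.46 to 6.55). The relatives Arrdc1, Arrdc2 and Arrdc3, at mean signals of 10.37, 8.95 and 11.16, differed by 0.10, 0.12 and 0.06 and did not pass.

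Igf1r, the receptor related to Insr, read 7.69, 8.05 and 7.77 in the control arrays and 7.81, 8.55 and 8.30 in the Cre-ERT2 arrays. Its difference of 0.38 (limma adjusted p = 0.284) did not pass. Within each group its arrays stood in the reverse order of the mast cell marker means, and of Irs2. With those means as a covariate the difference was 1.01 (limma adjusted p = 0.00486), the only setting of 14 under which Igf1r passed. The part of the mast cell signal in the levels of Igf1r and Irs2 was not tested.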
